A study of Mus musculus with 4 samples.

Results

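The 8 genes described here encode the enzymes and cofactors that break down neutral lipid inside the cell: Pnpla2, Lipe, Abhd5, G0s2, Mgll, Lipa, Abhd6 and Aadac. They were taken by symbol from the GENCODE M21 annotation, and all 8 were present among the 37315 gene identifiers of the count files. RNA-seq had been made from polyadenylated liver RNA of Fto knockout mice (KO, 2 libraries) and of wild-type mice (WT, 2 libraries), all C57BL/6 and aged 23 weeks. Fto encodes an RNA demethylase. The labels do not state how the allele was made, in which cells it was lost, or the sex of the animals. They also do not say whether each library is a different mouse, and the p-values therefore cover the scatter among these 4 libraries only, some of which may be technical.

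Triglyceride stored in droplets is hydrolysed in steps. Adipose triglyceride lipase (Pnpla2) removes the first fatty acid, hormone-sensitive lipase (Lipe) acts on the diacylglycerol that is left, and monoacylglycerol lipase (Mgll) releases the last fatty acid from glycerol. The coactivator Abhd5 switches Pnpla2 on at the droplet surface and the small protein G0s2 inhibits it. Lipid that reaches lysosomes is hydrolysed by the acid lipase Lipa, while Abhd6 acts on monoacylglycerols and some phospholipids at membranes, and Aadac is an esterase of the endoplasmic reticulum of hepatocytes. In liver these steps supply fatty acids for oxidation and for the assembly of lipoproteins.

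Total counts were 44689114 and 40947808 in the KO libraries, against 41332870 and 39549592 in the WT libraries. Fto had 607 and 486 reads in KO, against 1749 and 1292 in WT, a log2 fold change of -1.57 (SE 0.195, edgeR quasi-likelihood test, adjusted p = 0.0109). All 12 hepatocyte markers were tested, and their summed level was 104130 and 112397 CPM (counts scaled to a common library total) in KO, against 93654 and 101197 CPM in WT. Alb gave the larger part of this sum, with 58253 and 70110 CPM in KO, against 53495 and 64831 CPM in WT. At an adjusted p under 0.05 edgeR and limma-voom called 0 of the 12, and DESeq2 called 1. By the unadjusted edgeR p under 0.05, 2 were higher in KO (Cps1, log2 fold change 0.74, and Fga, 0.56) and 0 lower. Of all tested genes 6.53% were higher and 6.48% lower at that threshold. Libraries numbered 2 held relatively more reads on short transcripts than libraries numbered 1: for coding genes whose longest transcript had 1000 to 2000 bases the median log2 ratio of library 2 over library 1 was 0.15 in KO and 0.26 in WT, and among those of 8000 bases and more it was -0.46 in KO and -0.49 in WT.

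The regulatory sequence at 4 of the genes is shown first, for the 3 with the smallest p-values between the genotypes (Mgll, Lipa and G0s2) and for the lipase that starts the pathway (Pnpla2). Each run is the 250 bases before the RefSeq transcript start (GRCm38.p6), written 5′ to 3′ on the strand of the gene. Mgll lies at chr6:88724162-88724411 (plus strand), Lipa at chr19:34527475-34527724 (minus strand), G0s2 at chr1:193273189-193273438 (minus strand) and Pnpla2 at chr7:141454938-141455187 (plus strand). Capitals mark matches, on either strand, to the motifs searched.
Mgll: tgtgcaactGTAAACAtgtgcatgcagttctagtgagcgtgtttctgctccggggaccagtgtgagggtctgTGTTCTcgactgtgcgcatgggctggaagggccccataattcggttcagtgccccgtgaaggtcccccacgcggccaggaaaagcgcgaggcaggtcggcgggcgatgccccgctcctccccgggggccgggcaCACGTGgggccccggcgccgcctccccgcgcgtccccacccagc
Lipa: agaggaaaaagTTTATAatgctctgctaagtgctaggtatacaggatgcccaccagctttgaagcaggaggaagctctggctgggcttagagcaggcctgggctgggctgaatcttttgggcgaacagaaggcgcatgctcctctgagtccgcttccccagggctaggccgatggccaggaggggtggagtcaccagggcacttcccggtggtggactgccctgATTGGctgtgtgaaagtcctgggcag
G0s2: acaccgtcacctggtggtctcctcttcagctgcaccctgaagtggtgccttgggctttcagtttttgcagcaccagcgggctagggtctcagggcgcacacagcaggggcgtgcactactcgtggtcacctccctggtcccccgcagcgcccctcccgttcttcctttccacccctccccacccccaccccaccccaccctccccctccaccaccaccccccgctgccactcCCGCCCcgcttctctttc
Pnpla2: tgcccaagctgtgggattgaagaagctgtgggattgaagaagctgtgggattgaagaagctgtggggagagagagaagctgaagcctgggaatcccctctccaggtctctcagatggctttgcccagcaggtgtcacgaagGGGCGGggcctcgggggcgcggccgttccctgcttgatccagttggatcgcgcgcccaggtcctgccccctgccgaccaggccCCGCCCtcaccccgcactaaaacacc
The Mgll run holds a forkhead motif (TGTTTAC, here on the opposite strand), the letters TGTTCT, part of a glucocorticoid response element, and an E-box (CACGTG). Lipa holds a TATA box (TATAAA) far from the start and a CCAAT box (CCAAT) near it, both on the opposite strand. G0s2 holds 1 GC box (GGGCGG) and Pnpla2 holds 2. No matches in these 4 runs overlapped each other.

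Across the 11 such windows that RefSeq lists for the 8 genes, the GC box was found in 6, against 32.7% of all 32851 windows. Mgll, Lipe and Abhd6 have 2 windows each, and those of Abhd6 overlap, so the 11 are not separate genes or sequences. The E-box was found in 2 windows (Mgll and Lipe), against 6.02% of all, and the forkhead motif in 2 (Mgll and a second start of Lipe), against 3.17%. CCAAT was found in 3 windows (33.8% of all), TATAAA in 1 (12.4%) and TGTTCT in 1 (16.1%). The cAMP response element TGACGTCA was in 0 of the 11, with 1.55% of all windows holding it. The direct repeat of AGGTCA, any base and AGGTCA, a site of PPAR-RXR receptor pairs, was also in 0, with 0.0335% of all. These are matches of letters and not evidence of binding. In base composition Aadac stood apart, with 36.4% G and C in its window, against 58.0% to 74.8% in the other 10.

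None of the 8 genes was called between KO and WT. The edgeR quasi-likelihood test, with p-values adjusted over all 13836 genes tested, called 0 of 8 at an adjusted p under 0.05, against 1.91% of all genes tested. DESeq2 and limma-voom also called 0 of 8. At an unadjusted p under 0.05 there were 3 of 8, all lower in KO (Mgll, Lipa and G0s2), where 13.0% of all tested genes were under that threshold, 6.48% lower and 6.53% higher in KO. With the replicate number as a block, a fit for which no label supports the pairing, 3 of 8 passed an adjusted p under 0.05 (Mgll, Lipa and G0s2), where 19.7% of all genes did, 9.58% with KO lower. The log2 fold changes of the 8 genes lay between -0.60 and 0.28 with a median of -0.29, and 6 were below 0. The median over all tested genes was 0.006. The smallest change among all called genes was 0.91 on the log2 scale, and all 8 genes had 95% intervals that lay inside a 2-fold change in either direction. These intervals are per gene and are not adjusted for several genes. In bulk tissue, fewer cells of a type and less RNA per cell cannot be told apart.

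KO and WT libraries did not overlap at 5 of the 8 genes, Mgll, Lipa, G0s2, Abhd6 and Lipe, all lower in KO. Such a separation was seen at 42.0% of all genes tested, with KO lower at 20.4% and KO higher at 21.6%. Reads of the 8 genes together made up 0.118% and 0.129% of the KO libraries, against 0.140% and 0.156% of the WT libraries. The counting error of a single value was between 0.687% and 3.88%, and the coefficient of variation between the libraries of a genotype was between 1.51% and 26.1%.

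**Figure D1:**
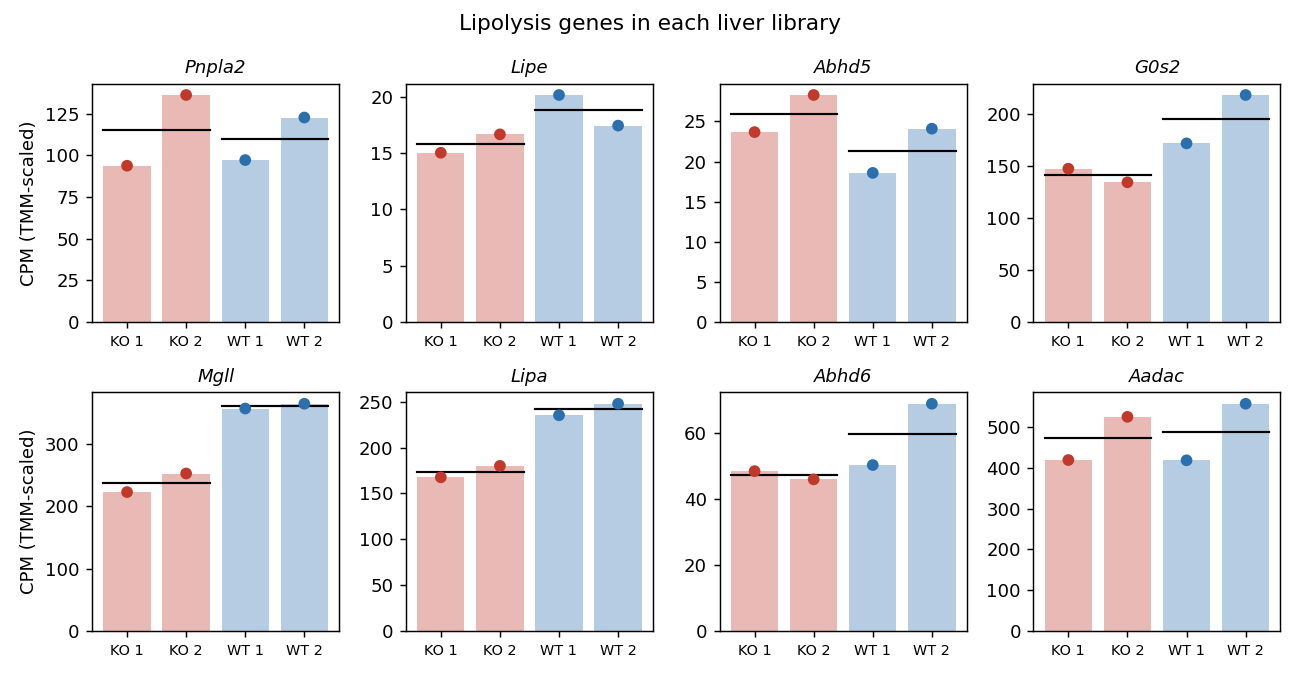
CPM after TMM scaling of the 8 genes in each library, KO libraries (red) left of WT libraries (blue), with bars and points for single libraries and a black line for the mean of each genotype. Mgll and Lipa show the clearest gap between genotypes, while KO and WT overlap for Pnpla2, Abhd5 and Aadac.

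At the first step, the lipase Pnpla2 did not separate the genotypes. The gene lies on chromosome 7 (141455198 to 141460743, plus strand, mm10) and had 93.8 and 136 CPM in KO, against 97.2 and 123 CPM in WT. The KO libraries lay on both sides of the WT libraries. The log2 fold change was 0.06 (SE 0.231, 95% interval -0.47 to 0.60, edgeR adjusted p = 0.960). The libraries numbered 2 were higher in both genotypes, by 0.54 in KO and 0.34 in WT on the log2 scale, more than the median of 0.06 in KO and 0.08 in WT for transcripts of 2000 to 4000 bases. Its sign turned without WT replicate 1 (-0.09) and without KO replicate 2 (-0.24).

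Abhd5, the coactivator of Pnpla2, had 23.7 and 28.3 CPM in KO, against 18.6 and 24.1 CPM in WT. The lower KO library lay just below the higher WT library, so the genotypes overlapped. The log2 fold change of 0.28 was the highest of the 8 (SE 0.209, 95% interval -0.20 to 0.77, adjusted p = 0.662, edgeR). Within a library number, the log2 ratio of KO over WT was 0.35 for number 1 and 0.23 for number 2. Without single libraries the log2 fold change ran from 0.11 (without WT replicate 1) to 0.47 (without WT replicate 2). The gene lies on chromosome 9 (122351608 to 122381524, plus strand) and shares 950 exonic bases with the antisense gene A730085K08Rik, which had 0 or 1 reads in each library.

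G0s2, the inhibitor of Pnpla2, was lower in both KO libraries. This gene of 2 exons on chromosome 1 (193272161 to 193273217, minus strand) had 147 and 134 CPM in KO, against 172 and 218 CPM in WT. No KO library reached the lower WT library. The log2 fold change was -0.47 (SE 0.190, 95% interval -0.91 to -0.03, unadjusted p = 0.0402, adjusted p = 0.351, edgeR). WT replicate 2 was above WT replicate 1 by 0.35 on the log2 scale. For coding genes under 1000 bases, the length class of G0s2, the median of library 2 over library 1 was 0.18 in KO and 0.36 in WT. Within a number, the log2 ratio of KO over WT was -0.22 for number 1 and -0.70 for number 2. Without WT replicate 2 the log2 fold change was -0.30. G0s2 overlaps Lamb3 on the opposite strand but shares 0 exonic bases with it.

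Lipe, the diacylglycerol lipase best known from fat cells, had the lowest mean level per length of the 8 in both genotypes, although in WT replicate 1 Abhd5 was lower by union exon length. It had 15.03 and 16.7 CPM in KO, against 20.2 and 17.4 CPM in WT, from 664 to 855 reads a library. The KO values lay below both WT values by a narrow margin. The log2 fold change was -0.25 (SE 0.189, 95% interval -0.68 to 0.19, adjusted p = 0.675, edgeR), with -0.42 for number 1 and -0.07 for number 2. It was -0.14 without WT replicate 1. Lipe lies on chromosome 7 (25379527 to 25398710, minus strand) and shares 918 exonic bases with the antisense gene 4732471J01Rik, which had 0 or 1 reads in each library.

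The fat cell transcripts Adipoq, Lep and Plin1 had 15 or more reads in each library numbered 2 and 3 or fewer in each numbered 1. Adiponectin (Adipoq) had 0 and 71 reads in KO, against 1 and 70 in WT, and leptin (Lep) had 0 and 36 in KO, against 0 and 41 in WT. Perilipin 1 (Plin1), the coat of the fat cell droplet, had 3 and 18 reads in KO, against 1 and 15 in WT. The binding protein Fabp4, also made by macrophages, had 131 and 468 reads in KO, against 191 and 617 in WT. Of the 12 adipocyte markers 8 were tested and 1 was called, Pparg, lower in KO. Summed without Pck1, which hepatocytes also express, the other 11 had 17.1 and 39.1 CPM in KO, against 50.6 and 108 CPM in WT. Cidec and Pparg gave the larger part of this sum in every library. Cidec had 5.80 and 13.5 CPM in KO, against 27.2 and 58.3 CPM in WT. Pparg had 7.77 and 7.32 CPM in KO, against 15.4 and 22.1 CPM in WT. The reads of Adipoq, Lep and Plin1 were similar in KO and WT at each library number. Cfd and Retn, also on the list, were lower in KO at each number. Cfd had 20 and 127 reads in KO, against 139 and 245 in WT (adjusted p = 0.477, edgeR). Retn had 0 and 5 reads in KO, against 5 and 17 in WT, and was not tested. For Lipe the log2 ratio of library 2 over library 1 was 0.15 in KO and -0.21 in WT. The part of fat cell RNA in the levels of the 8 genes was not tested.

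The lowest p-value of the 8 belonged to Mgll, which carries out the last step. It lies on chromosome 6 (88724412 to 88828360, plus strand) and had 223 and 253 CPM in KO, against 358 and 365 CPM in WT. Both KO libraries lay well below both WT libraries, which differed little from each other. The KO level was 65.9% of WT (95% interval 50.1% to 86.7%), a log2 fold change of -0.60 (SE 0.171, unadjusted p = 0.00831, adjusted p = 0.163, edgeR). The log2 ratio within a number was -0.68 for number 1 and -0.53 for number 2. The log2 fold change lay between -0.70 and -0.51 when single libraries were left out. An antisense gene, Gm26588, shares 167 exonic bases with Mgll and is absent from the deposited counts.

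Abhd6, which also hydrolyses monoacylglycerols, had 48.5 and 46.0 CPM in KO, against 50.3 and 69.0 CPM in WT. The KO libraries were below both WT libraries, but the lower WT library was close to them. The log2 fold change was -0.34 (SE 0.207, 95% interval -0.82 to 0.14, adjusted p = 0.577, edgeR). Within a number it was -0.05 for number 1 and -0.58 for number 2. Without WT replicate 2 it was -0.10 and without WT replicate 1 it was -0.55. The gene lies on chromosome 14 (8002902 to 8056763, plus strand).

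Lipa, the acid lipase of lysosomes, which also hydrolyses cholesteryl esters, had 168 and 180.1 CPM in KO, against 235 and 248 CPM in WT. The libraries of each genotype lay close together and the genotypes stood apart. The KO level was 71.9% of WT, a log2 fold change of -0.47 (SE 0.168, 95% interval -0.86 to -0.09, unadjusted p = 0.0231, adjusted p = 0.276, edgeR). The log2 ratio within a number was -0.49 for number 1 and -0.46 for number 2. The range of the log2 fold change without single libraries was -0.54 to -0.42. Lipa lies on chromosome 19 (34492318 to 34527474, minus strand).

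Lipa is also abundant in macrophages, and markers of Kupffer cells, the macrophages of liver, were read beside it. Of 16 tested, edgeR and limma-voom called 2 each and DESeq2 called 5. Over all 13836 genes edgeR called 264, limma-voom 258 and DESeq2 574. Of the 16 markers, 15 had log2 fold changes above 0 (list median 0.82), where 7027 of all 13836 genes did. By the unadjusted edgeR p under 0.05, 15 were higher in KO and 0 lower. Of all tested genes 6.53% were higher and 6.48% lower at that threshold. Those called by edgeR were Marco, a receptor that clears particles (log2 fold change 1.66, adjusted p = 0.0155), and Csf1r, which receives the macrophage growth signal (0.97, adjusted p = 0.0478). The adjusted p of Csf1r was 0.0670 with WT replicate 1 left out, 0.0842 with KO replicate 1 left out and 0.0738 under scaling by library size. The summed level of the 16 markers was 566 and 556 CPM in KO, against 319 and 412 CPM in WT. Their part in the level of Lipa was not tested.

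Aadac, the esterase of the endoplasmic reticulum, had 419 and 525 CPM in KO, against 418 and 557 CPM in WT. The genotypes overlapped almost completely, and both libraries numbered 2 were higher. The log2 fold change was -0.05 (SE 0.211, 95% interval -0.54 to 0.44, adjusted p = 0.971, edgeR). Its sign turned without WT replicate 2 (0.17) and without KO replicate 1 (0.11). Aadac lies on chromosome 3 (60025717 to 60040160, plus strand).

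**Figure D2:**
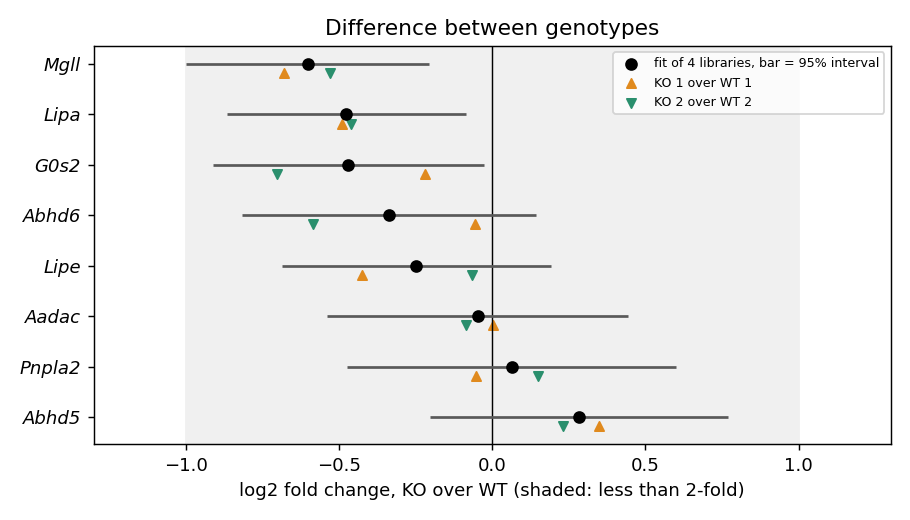
Log2 fold change of KO over WT for the 8 genes, with the edgeR estimate and its 95% interval (black). Triangles are the log2 ratios between libraries of the same number. The shaded band is a change of less than 2-fold. The intervals of Mgll, Lipa and G0s2 lie below 0, and the ratios of Lipa nearly coincide while those of G0s2 and Abhd6 lie apart.

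Levels per length differed far more between the genes than between the genotypes. Scaled by the union of annotated exons, Aadac was the most abundant, with 279 and 350 CPM per kilobase in KO, against 279 and 371 CPM per kilobase in WT. G0s2 came next with 169 and 154 CPM per kilobase in KO, against 197 and 251 CPM per kilobase in WT. Both ranges lay above those of all genes that followed, and they did not overlap each other.

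Mgll followed, with 44.0 and 49.8 CPM per kilobase in KO, against 70.4 and 71.9 CPM per kilobase in WT. Pnpla2 had 31.1 and 45.1 CPM per kilobase in KO, against 32.2 and 40.6 CPM per kilobase in WT. Its range overlapped those of both neighbours, Mgll and Lipa. Lipa had 24.7 and 26.6 CPM per kilobase in KO, against 34.7 and 36.6 CPM per kilobase in WT. Abhd6 had 20.5 and 19.5 CPM per kilobase in KO, against 21.3 and 29.2 CPM per kilobase in WT, which overlapped the range of Lipa.

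The coactivator and the diacylglycerol lipase were lowest and overlapped each other. Abhd5 had 3.97 and 4.75 CPM per kilobase in KO, against 3.12 and 4.04 CPM per kilobase in WT. Lipe had 2.55 and 2.83 CPM per kilobase in KO, against 3.43 and 2.96 CPM per kilobase in WT. The libraries do not mark strand, so reads in the bases these genes share with antisense genes may have gone uncounted. The choice of length bears on these levels: the union of exons is 5956 bases for Abhd5 and 6780 for Lipa, against 3157 and 3895 bases for the longest transcript. Scaled by the longest transcript, the mean of Lipa was above that of Pnpla2 in both genotypes, with ranges that still overlapped, and Abhd5 no longer overlapped Lipe.

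**Figure D3:**
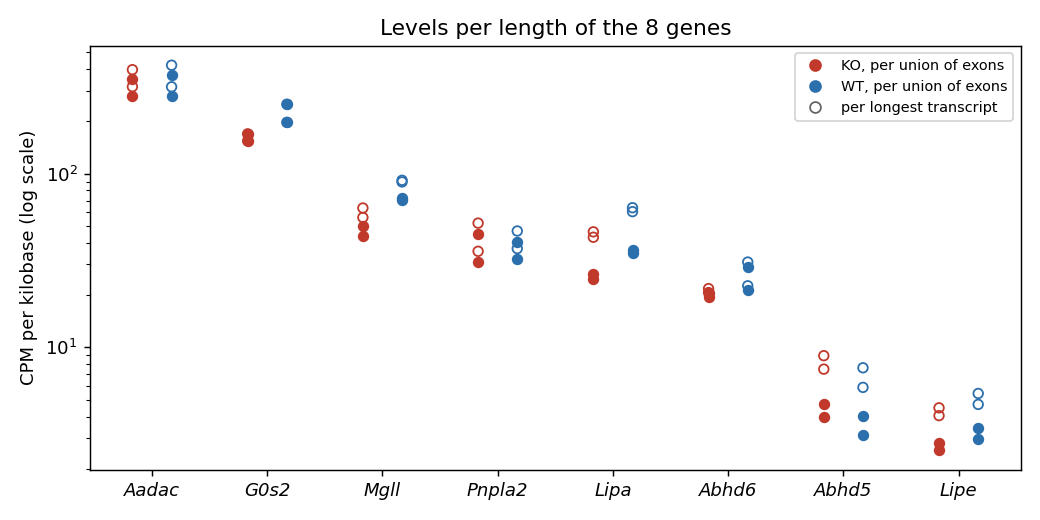
CPM per kilobase (log axis) of the 8 genes in KO (red) and WT (blue) libraries, scaled by the union of annotated exons (filled) or by the longest transcript (open). Aadac and G0s2 lie above the other 6 genes, and Abhd5 and Lipe below them.

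Ratios within a library do not depend on the scaling between libraries. They can still carry the difference by transcript length, since G0s2 is shorter than the genes it is set against. The median log2 fold change of coding genes was -0.11 under 1000 bases and -0.0002 from 2000 to 4000 bases. The part of length in these ratios was not tested. With 2 libraries against 2, the exact permutation test cannot go below p = 0.333 (two-sided), so no ratio could pass 0.05. Of 8 ratios examined, 5 separated the genotypes, each with the smallest p of 0.333. Single genes separated the genotypes at 42.0% of all tested, and no such share was computed for ratios. The 8 ratios are not independent of each other, since they share genes, Pnpla2 most often. G0s2 over Pnpla2, the inhibitor over its lipase, was 5.45 and 3.42 in KO, against 6.13 and 6.17 in WT. The WT libraries were nearly equal and both KO libraries were lower, with a difference of -0.51 on the log2 scale that became -0.85 with KO replicate 1 left out and -0.17 with KO replicate 2 left out.

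G0s2 over Abhd5, the inhibitor over the coactivator, was 42.6 and 32.5 in KO, against 63.2 and 62.0 in WT. The log2 difference was -0.75, and it ran from -0.95 to -0.55 when single libraries were left out. Abhd5 over Pnpla2 was 0.128 and 0.105 in KO, against 0.0969 and 0.0995 in WT, a log2 difference of 0.24 that was 0.10 without KO replicate 1. Across the steps, Mgll over Lipe had a log2 difference of -0.36 and Lipa over Pnpla2 one of -0.52, both with the genotypes apart. The Mgll over Lipe difference was -0.24 without WT replicate 2, and the Lipa over Pnpla2 difference was -0.31 without KO replicate 2. For Lipe over Pnpla2 (-0.29), Abhd6 over Mgll (0.29) and Aadac over Pnpla2 (-0.09) the genotypes overlapped, each with exact p = 0.667. With single libraries left out, Lipe over Pnpla2 ran from -0.57 (without WT replicate 2) to -0.02 (without WT replicate 1). Abhd6 over Mgll ran from 0.07 (without WT replicate 1) to 0.50 (without WT replicate 2).

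**Figure D4:**
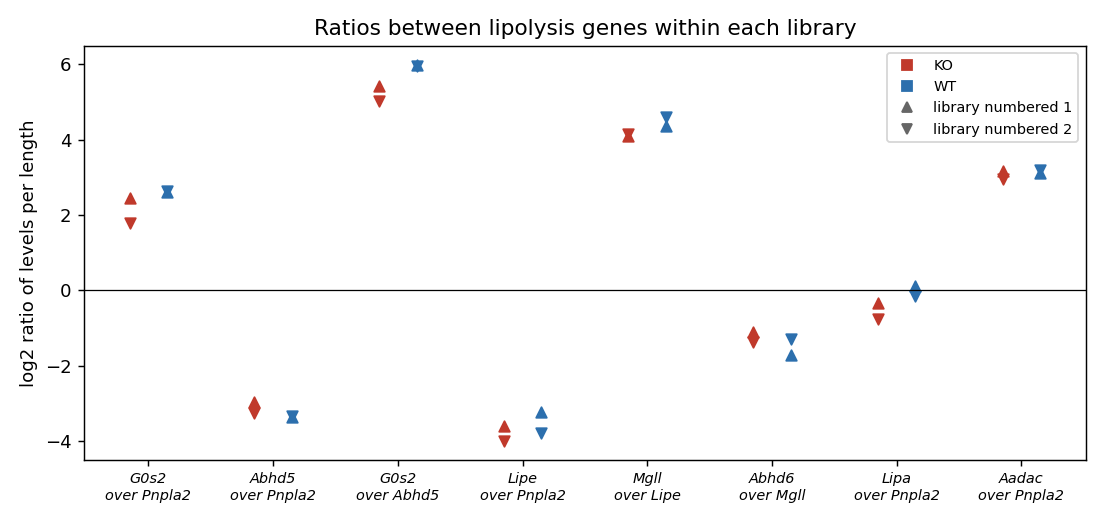
Log2 ratios of levels per length between pairs of lipolysis genes within each library, KO (red) left of WT (blue), with upward triangles for libraries numbered 1 and downward triangles for those numbered 2. G0s2 over Abhd5 is lower in both KO libraries, and the WT libraries nearly coincide.

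For the 3 genes with the smallest p-values, the protein-coding genes with the most similar pattern over the 4 libraries were found by the Euclidean distance between mean-centred log2 CPM. For Mgll these were the ceramide synthase gene Cers6 (distance 0.0379), Accs (0.0505) and the NAD synthesis gene Nmnat3 (0.0562). For Lipa they were Cradd (0.0209), Zdhhc4 (0.0345) and the connexin gene Gja5 (0.0377). The level of Gja5 was very low, with 0.238 and 0.250 CPM in KO, against 0.354 and 0.368 CPM in WT (unadjusted p = 0.332, edgeR), so its match rests on few reads. For G0s2 they were Cyp3a59 (0.0415), the apolipoprotein gene Apoc3 (0.0424) and the mitochondrial import gene Timm22 (0.0444). With 4 libraries such matches are common: 18, 40 and 21 genes lay within a distance of 0.1 of Mgll, Lipa and G0s2. None of these 9 genes was called (adjusted p from 0.189 to 0.758, edgeR).

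The genes around the pathway were read from 7 lists of other hydrolases, droplet surface proteins, hormone and cAMP signalling, regulators of lipases, lysosomes, fates of the released fatty acids and glycerol, and endocannabinoid metabolism. Without the 8 genes they held 148 genes, of which 141 were tested. In the edgeR fit 7 were called lower and 3 higher in KO, where 0.947% and 0.961% of all tested genes were called lower and higher. Over all 13836 genes limma-voom called 258 and DESeq2 574.

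On the surface of the droplet, where Pnpla2, Abhd5 and G0s2 act, edgeR called 3 of 17 tested genes lower in KO and 0 higher. Of the 17, 11 had log2 fold changes below 0 and 6 above 0, and the list median was -0.17. The droplet fusion protein Cidea fell to 0.324 and 0.800 CPM in KO, against 30.7 and 42.7 CPM in WT (log2 fold change -6.05, adjusted p = 0.00115, edgeR), and was -6.82 without KO replicate 2. The perilipin Plin4 had -1.81 and the fat storage protein Fitm1 -1.07. The adjusted p of Fitm1 was 0.0572 with WT replicate 2 left out and 0.0649 under scaling by library size. Plin2, the most abundant coat protein of hepatocyte droplets, had -0.56 and Plin5 -0.36, and neither was called (adjusted p = 0.329 and 0.499). Cidec had a log2 fold change of -2.15 and was also not called (adjusted p = 0.0711, edgeR).

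Among 31 tested hydrolases outside the 8 genes, edgeR called 2 lower and 1 higher in KO, and the median was -0.12. DESeq2 called 6 of them and limma-voom 3. The carboxylesterase Ces1g had 52.5 and 61.9 CPM in KO, against 245 and 241 CPM in WT (log2 fold change -2.09, adjusted p = 0.00272, edgeR). Ces2e, a carboxylesterase of the same superfamily, had -1.01, with an adjusted p of 0.0511 once WT replicate 2 was left out. Lpl, the lipase that acts on lipoproteins in the blood, rose by 1.43, with an adjusted p of 0.0528 under scaling by library size. Ces1d, which hydrolyses stored triglyceride in hepatocytes, had 549 and 503 CPM in KO, against 734 and 858 CPM in WT, and was not called (-0.60, adjusted p = 0.178). Carboxylesterase genes are close copies of each other, and counting that drops shared reads makes their levels uncertain.

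Signals that turn lipolysis on or off showed no call among 28 tested genes, with a median of -0.003. The glucagon receptor Gcgr had a log2 fold change of -0.13 and the catalytic kinase subunit Prkaca -0.52 (adjusted p = 0.856 and 0.279, edgeR). By the unadjusted p, 2 of the 28 were lower and 2 higher at 0.05. For the same list limma-voom called 0 and DESeq2 called 1, the phosphodiesterase Pde4d, which degrades cAMP. Of 21 tested regulators edgeR called 1, the lipid-sensing receptor Pparg, lower in KO. Pparg had 7.77 and 7.32 CPM in KO, against 15.4 and 22.1 CPM in WT (-1.31, adjusted p = 0.0352). Under scaling by library size its adjusted p was 0.0607. Foxo1, a factor that drives Pnpla2 and represses G0s2, had 0.14 and Ppara 0.29, and neither was called.

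Lysosomal genes gave no call among 23, Lipa included, with a median of -0.02. By unadjusted p in edgeR, Lipa was the only one of the 23 under 0.05, and DESeq2 and limma-voom called 0. Tfeb, the regulator of lysosome genes, had 0.27. Of the lysosomal proteases on the list, Ctsl had 0.24, Ctsa 0.23, Ctsd -0.21 and Ctsb -0.18. Endocannabinoid genes, which share Mgll and Abhd6 as enzymes that degrade 2-arachidonoylglycerol, also gave no call among 10, where Mgll alone of the 10 had an unadjusted p under 0.05 and DESeq2 and limma-voom also called 0. Abhd12, a further hydrolase of the same lipid, had 31.7 and 33.1 CPM in KO, against 33.1 and 32.3 CPM in WT.

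Of 19 tested genes for the uptake, binding and use of fatty acids and glycerol, edgeR called 1 lower and 2 higher in KO. The median of the 19 was -0.28. DESeq2 called 5 of them and limma-voom 3. The fatty acid transporter Cd36 had 31.3 and 33.1 CPM in KO, against 132 and 175 CPM in WT (-2.25, adjusted p = 0.00323, edgeR). The acyl-CoA synthetase Acsl4 rose by 1.12 (adjusted p = 0.0327). The binding protein Fabp5 had 19.6 and 67.7 CPM in KO, against 2.74 and 5.07 CPM in WT (3.48, adjusted p = 0.0306). The adjusted p of Fabp5 was 0.455 with WT replicate 2 left out, 0.552 with no filter on low counts, 0.0568 under upper quartile scaling and 0.0661 under scaling by library size. Leaving out KO replicate 2 gave a log2 fold change of 2.32 and leaving out KO replicate 1 gave 4.12.

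**Figure D5:**
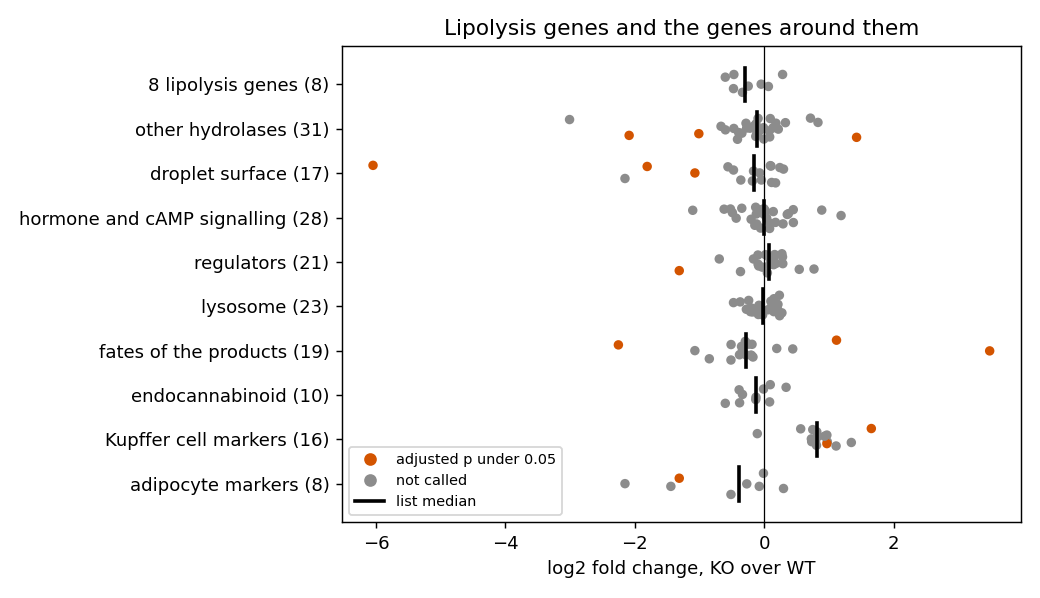
Log2 fold change of KO over WT (edgeR) for the 8 lipolysis genes, the 7 lists of genes around them and 2 lists of cell type markers, with the number tested in brackets, called genes in orange and list medians as black bars. The 8 genes lie within -0.60 and 0.28, while the called genes of the other lists reach -6.05 and 3.48.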

How the data were processed

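Liver RNA was sequenced as paired reads of 101 bases from TruSeq v2 libraries, a kit that does not mark strand, per the labels' protocols. The deposited files hold raw counts per Ensembl gene, made with TopHat2 2.1.1 and HTSeq 0.6.0 on mm10, per the submitters' processing notes. No source used here states the annotation release or how reads were assigned to genes. From the deposited counts, KO was compared with WT in edgeR 4.0.16 (R 4.3.3) with genotype as the only term: filterByExpr (minimum count 10, minimum total 15), TMM scaling, robust quasi-likelihood F test, two-sided, Benjamini-Hochberg adjustment over 13836 genes, called at 0.05. For the SE, the absolute log2 fold change was divided by √F, and 95% intervals use the test's degrees of freedom. Levels are CPM after TMM scaling. The steps were tested on simulated data. DESeq2 1.42.0 and limma-voom (limma 3.58.1) were alternatives.

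GENCODE M21 gave symbols for 35449 identifiers. Every pair of libraries differed by more than counting noise (chi-square per degree of freedom at least 86.5). The members and lists were chosen with earlier results of these data known. Genes named beyond the 8 are called list members and those nearest in pattern to 3 members (protein-coding, symbols starting with Gm or ending in Rik left out). Adipoq, Lep, Plin1 and Pck1 are named outside these rules, as members of the adipocyte marker list. Plin2, Plin5, Cidec, Ces1d, Gcgr, Prkaca, Foxo1, Ppara and Tfeb were chosen after their values were seen. So were Ctsl, Ctsa, Ctsd, Ctsb, Fabp4, Cfd, Retn, Alb, Cps1, Fga, Abhd12 and the genes of the closing section. Marker lists of stellate, endothelial, cholangiocyte, lymphocyte, neutrophil and pancreas cells held 0 genes called by edgeR; limma-voom called 0, and DESeq2 called 1 endothelial and 1 lymphocyte gene. At an unadjusted p under 0.05 edgeR had 2 stellate, 1 endothelial, 2 lymphocyte, 1 neutrophil, 1 pancreas and 0 cholangiocyte genes. Intervals and counting errors cover the named error only.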

Additional observations from a re-analysis of the deposited data

How the results depend on the processing

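The number of the 8 genes called by an adjusted p under 0.05 was 0 under 10 of 11 alternatives. With the replicate number as a block it was 3: Mgll (-0.60, adjusted p = 4.36e-05), Lipa (-0.48, adjusted p = 5.43e-04) and G0s2 (-0.46, adjusted p = 0.00464), where that fit called 2729 genes in all, 19.7% of those tested. Libraries of the same number deviated together (correlation of deviations from the genotype mean 0.43 across genes), but with 2 numbers and no label that ties them, the numbers were not taken to pair libraries. Without the block, the adjusted p of the 8 genes ran from 0.0911 to 0.998 over all alternatives. Signs turned for Pnpla2 (-0.09 without WT replicate 1, -0.24 without KO replicate 2) and Aadac (0.17 without WT replicate 2, 0.11 without KO replicate 1), and for no other of the 8; without single libraries Pnpla2 ran from -0.24 to 0.31. The Aadac over Pnpla2 difference ran from -0.20 to 0.015 when single libraries were left out. The count over all genes, 264, was 829 without the filter, 574 with DESeq2 and 460 to 633 with single libraries left out. Calls on the 7 lists, 10 in all, were 6 with library size alone, 19 without the filter, 16 with DESeq2, 45 with the block and 8 to 18 with single libraries left out; all alternatives for these lists, and those of the ratios by library, were added after seeing the data. Scaled by the longest transcript, mean WT levels were 5.06 CPM per kilobase for Lipe, 6.76 for Abhd5, 90.5 for Mgll and 62.0 for Lipa. The cause of these shifts in counts was not tested. With 2 libraries per genotype, the intervals of the 8 genes leave changes of up to about a 2-fold decrease for Mgll.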

Other observations

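Pnpla3, a paralog of Pnpla2 that sits on hepatocyte droplets and competes for Abhd5, had 9 and 10 reads in KO, against 20 and 120 in WT. A single library, WT replicate 2, held most of its reads, and the log2 fold change of -3.01 was not called by edgeR (SE 0.868, adjusted p = 0.169) but was by DESeq2. Pnpla5, a further paralog, had 0 and 0 reads in KO, against 3 and 24 in WT, and was too low to test. Pnpla1 had 100 and 64 reads in KO, against 137 and 105 in WT (adjusted p = 0.387, edgeR). Nceh1, a neutral cholesterol ester hydrolase related to Aadac, had 55.5 and 49.7 CPM in KO, against 42.6 and 41.2 CPM in WT (log2 fold change 0.33, adjusted p = 0.508, edgeR). Aadacl2, a paralog of Aadac, had 0 reads in every library.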
